A study of Mus musculus with 4 samples.

Results

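Notch receptors and their ligands are the subject here: the receptor genes Notch1, Notch2, Notch3 and Notch4, the Delta-like ligand genes Dll1, Dll3 and Dll4, and the Jagged ligand genes Jag1 and Jag2. They were taken by symbol from the annotation of the array's probe sets, each probe set being a group of short probes for the same transcript, and all 9 genes were measured, by 18 probe sets, among 18193 genes in all. The gene's brightest probe set over the 4 arrays gave its main value, and every other probe set was kept beside it.

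The RNA came from LSK cells, sorted by flow from the bone marrow of mice as negative for lineage markers and positive for cKit and Sca1. Stem cells of the blood and their multipotent offspring are in this fraction. The Ncstn KO group was Ncstn flox/flox Mx1-cre+, and its WT littermates were Ncstn flox/flox with no cre transgene. Each group held 2 mice, 1 female and 1 male, with 1 array per mouse. Both groups received polyIC, an inducer of interferon, at 20 µg per g of body weight in 3 injections on alternate days that began at 14 days of age, and marrow was taken 4 weeks later at 6 weeks of age. The Mx1 promoter drives cre in cells that respond to interferon, which are not confined to blood, and since WT mice lacked the transgene, its effect and that of the lost gene cannot be told apart. Total RNA, 5 ng per sample, was amplified before labelling.

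Notch receptors are single-pass membrane proteins that are switched on by ligands on a neighbouring cell. Ligand binding lets a metalloprotease of the ADAM family trim the receptor outside the membrane, and the gamma-secretase complex, of which nicastrin (the product of Ncstn) is a subunit, then cuts within the membrane and frees the intracellular domain. That domain enters the nucleus and joins RBPJ and a Mastermind-like coactivator to turn on target genes such as Hes1. In blood the pathway is best known for committing progenitors to the T lineage through Notch1 in the thymus, and for marginal zone B cells through Notch2 in the spleen. Loss of Ncstn acts on the receptor proteins after they are made, so the mRNA levels below are not a measure of receptor cleavage.

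The start regions of 4 of the genes are shown because the results turn on them: Notch2 was the brightest member, and Notch3, Notch4 and Jag1 differed most between the genotypes. Each runs from 250 bases before to 50 after the annotated start, 5′ to 3′ along the gene, from RefSeq on GRCm38.p6, and capitals mark GC boxes (GGGCGG on either strand, overlaps allowed), the motif of Sp1-type factors.
Notch2, chr3:98013288-98013587, plus strand: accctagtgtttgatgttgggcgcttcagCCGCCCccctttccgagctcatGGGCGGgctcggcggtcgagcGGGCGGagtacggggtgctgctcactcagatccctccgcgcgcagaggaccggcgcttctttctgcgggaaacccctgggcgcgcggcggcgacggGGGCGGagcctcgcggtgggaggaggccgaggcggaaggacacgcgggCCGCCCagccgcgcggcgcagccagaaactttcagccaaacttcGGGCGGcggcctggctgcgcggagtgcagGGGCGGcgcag
Notch3, chr17:32166841-32167140, minus strand: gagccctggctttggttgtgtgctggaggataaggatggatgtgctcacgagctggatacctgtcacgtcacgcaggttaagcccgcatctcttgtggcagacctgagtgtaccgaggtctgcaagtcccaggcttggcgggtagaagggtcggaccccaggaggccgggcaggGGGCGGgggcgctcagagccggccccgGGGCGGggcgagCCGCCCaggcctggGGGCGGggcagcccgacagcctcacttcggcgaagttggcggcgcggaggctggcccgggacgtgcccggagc
Notch4, chr17:34564045-34564344, plus strand: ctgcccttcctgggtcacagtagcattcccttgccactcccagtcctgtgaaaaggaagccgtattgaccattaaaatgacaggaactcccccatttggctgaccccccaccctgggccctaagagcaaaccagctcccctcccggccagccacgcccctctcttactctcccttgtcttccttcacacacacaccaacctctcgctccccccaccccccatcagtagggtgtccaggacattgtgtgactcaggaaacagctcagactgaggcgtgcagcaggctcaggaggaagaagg
Jag1, chr2:137116471-137116770, minus strand: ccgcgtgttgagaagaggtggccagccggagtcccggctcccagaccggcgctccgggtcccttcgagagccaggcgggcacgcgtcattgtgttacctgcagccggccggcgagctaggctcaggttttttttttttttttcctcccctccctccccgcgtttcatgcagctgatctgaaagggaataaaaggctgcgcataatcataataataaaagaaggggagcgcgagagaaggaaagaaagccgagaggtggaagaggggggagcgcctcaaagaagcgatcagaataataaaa
The Notch2 region held 7 GC boxes and that of Notch3 held 4, whereas those of Notch4 and Jag1 held 0. GC boxes were present in 6 of the 10 start regions of the members (Dll1 has 2 starts), against 35.66% of 32851 start regions of all genes. The GC content was 73.0% for Notch2, 70.0% for Notch3, 58.3% for Notch4 and 55.7% for Jag1, and the median of all start regions was 52.7%. The core motif of RBPJ, searched as TGGGAA on either strand, was in 0 of the 10 members' regions and in 25.56% of all regions. The TATA motif TATAAA was likewise in 0 of 10, against 13.62% of all. These are matches of letters within 300 bases and say nothing of a factor's binding or of sites elsewhere.

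The levels on WT arrays ordered the members over a wide range. Values are log2 of the deposited intensity. On this scale the median over all genes was 8.003 in WT. A set of 39 olfactory receptor genes, which blood cells are not known to use, had a WT median of 2.89 and a 95th percentile of 4.88. Notch2 stood first with a WT mean of 12.80 ± 0.08 (SD, n = 2) and Notch1 next with 11.91 ± 0.0061, which placed them at percentiles 98.1 and 91.8 of all genes. Jag2 followed at 10.09 ± 0.07, and Jag1 came after it at 7.75 ± 0.13. Notch3 at 6.90 ± 0.12 and Notch4 at 6.02 ± 0.24 lay below the median gene but above the olfactory receptor range. The 3 Delta-like ligands were the dimmest, with WT means of 4.57 ± 0.19 for Dll1, 4.47 ± 0.0060 for Dll4 and 3.62 ± 0.03 for Dll3, all under that 95th percentile. At such levels the arrays do not separate a low level from none.

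Of the 8 neighbouring pairs in this order, only Dll1 and Dll4 had overlapping WT arrays, and they changed places without WT replicate 1. The order is one of intensities, which depend on how well each set of probes binds as well as on the amount of RNA. The probe sets of a single gene show the size of that dependence. The other Notch2 probe set averaged 5.49 in WT, 7.30 log2 units below the main one, and the probe sets of Notch1 differed by 2.62. When each gene was given the mean of all its probe sets, Notch1 took the first place before Notch2, and Notch3 place 4 before Jag1, with the other 5 members in their places.

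**Figure D1:**
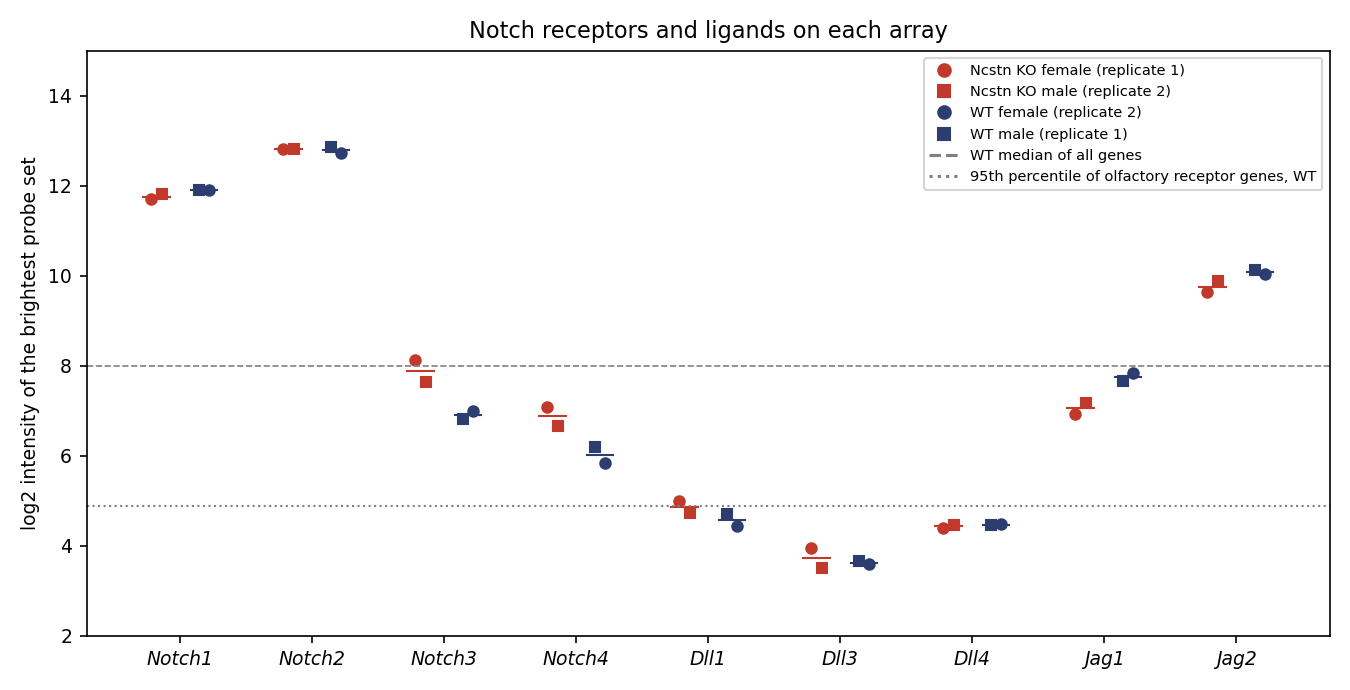
Log2 intensity of the brightest probe set of each member on the 4 arrays, with Ncstn KO left of WT for each gene, circles for females, squares for males and short lines for group means; the dashed line is the WT median of all genes (8.003) and the dotted line the 95th percentile of olfactory receptor genes in WT (4.88). Notch2 and Notch1 are the brightest, Notch3 and Notch4 are higher and Jag1 lower on both Ncstn KO arrays, and the Delta-like ligands lie near the dotted line.

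The comparison of Ncstn KO with WT asked whether loss of the gamma-secretase subunit went with a change in the mRNA of the receptors it acts on or of their ligands. No member passed the test at an adjusted p under 0.05 (limma, Benjamini-Hochberg over all genes), where the share of all genes called was 0%. At an unadjusted limma p under 0.05 there were 3 of the 9 members, against 6.8% of all genes: Notch3 and Notch4, higher in Ncstn KO, and Jag1, lower. Both Ncstn KO arrays lay on the same side of both WT arrays for 6 of 9 members, 3 above and 3 below, where 34% of all genes did so. A difference of at least 2-fold with the groups apart was found for 0 of 9, against 1.71% of all genes. The median change over the members was 0.02, and 0.02 over all genes, while the median size of a change regardless of sign was 0.29 for the members and 0.13 for all genes. An exact permutation test (two-sided) with 2 arrays in each group has a smallest possible p of 0.333 for any gene. The replicates of a group are separate mice, since they differ in sex, and the spread within a group includes any difference between the sexes. The limma p-values set a change against that spread after moderating it by the spread of other genes. Values of a group are given below for replicate 1 and then replicate 2, and replicate 1 was the female in Ncstn KO and the male in WT.

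The targeted gene was checked first. Its main probe set gave 7.58 and 7.91 on Ncstn KO replicates 1 and 2, against 9.05 and 8.98 on WT replicates 1 and 2, a change of -1.27 (SE 0.22) that did not pass (limma adjusted p = 0.257). The dimmer Ncstn probe set overlapped between the groups, with 5.86 and 7.09 in Ncstn KO and 6.81 and 6.79 in WT. The sources used here do not say where either lies relative to the floxed exons.

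Among the receptors, the bright pair showed little difference. Notch2 gave 12.82 and 12.81 on the Ncstn KO arrays, against 12.86 and 12.74 on the WT arrays, so that the Ncstn KO values lay between the WT values. Its change of 0.02 (SE 0.07, limma adjusted p = 1) had a 95% interval of -0.16 to 0.20, whose wider end is 1.15-fold, by this probe set and on the deposited scale. With the arrays scaled to the spiked hybridization controls the same probe set stood at -0.17, outside that interval. Notch1 gave 11.70 and 11.81 in Ncstn KO, against 11.91 and 11.91 in WT, so that both Ncstn KO arrays were lower by a small margin. Its change was -0.15 (SE 0.09, limma adjusted p = 0.877), with an interval of -0.38 to 0.07, and the difference was -0.20 between the females and -0.10 between the males. The dimmer Notch1 probe set did not repeat that order, with 9.28 and 9.35 in Ncstn KO and 9.16 and 9.43 in WT.

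The dim receptors differed more. Notch3, a receptor best known from vascular smooth muscle and from developing T cells, gave intensities of 279.9 and 197.8 on the Ncstn KO arrays, against 112.7 and 126.7 on the WT arrays. On the log2 scale these were 8.13 and 7.63 in Ncstn KO and 6.82 and 6.99 in WT, with every Ncstn KO array above every WT array. The difference of 1.97-fold (log2 0.98, SE 0.27, interval 0.32 to 1.63) had the smallest p of the 9 members but did not pass (limma adjusted p = 0.540). The other Notch3 probe set, of nearly the same brightness, gave 7.94 and 7.57 in Ncstn KO and 6.78 and 6.65 in WT, a change of 1.04 (SE 0.27). The difference was 1.14 between the females and 0.81 between the males. Left-out arrays moved it between 0.73, without Ncstn KO replicate 1, and 1.23, without Ncstn KO replicate 2.

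Notch4, a receptor best known from endothelium, gave 7.08 and 6.67 in Ncstn KO, against 6.19 and 5.85 in WT. The groups did not overlap and the change was 0.86 (SE 0.28, interval 0.18 to 1.54, limma adjusted p = 0.615), a 1.81-fold difference. It was 1.23 between the females and 0.48 between the males, whose difference from each other was not tested. A probe set of like brightness gave a smaller value of 0.48 (SE 0.28), again with the groups apart, at 6.87 and 6.47 in Ncstn KO and 6.18 and 6.21 in WT. The last Notch4 probe set was as dim as the median olfactory receptor gene, at a mean of 2.91 in Ncstn KO and 2.86 in WT, and its groups overlapped.

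**Figure D2:**
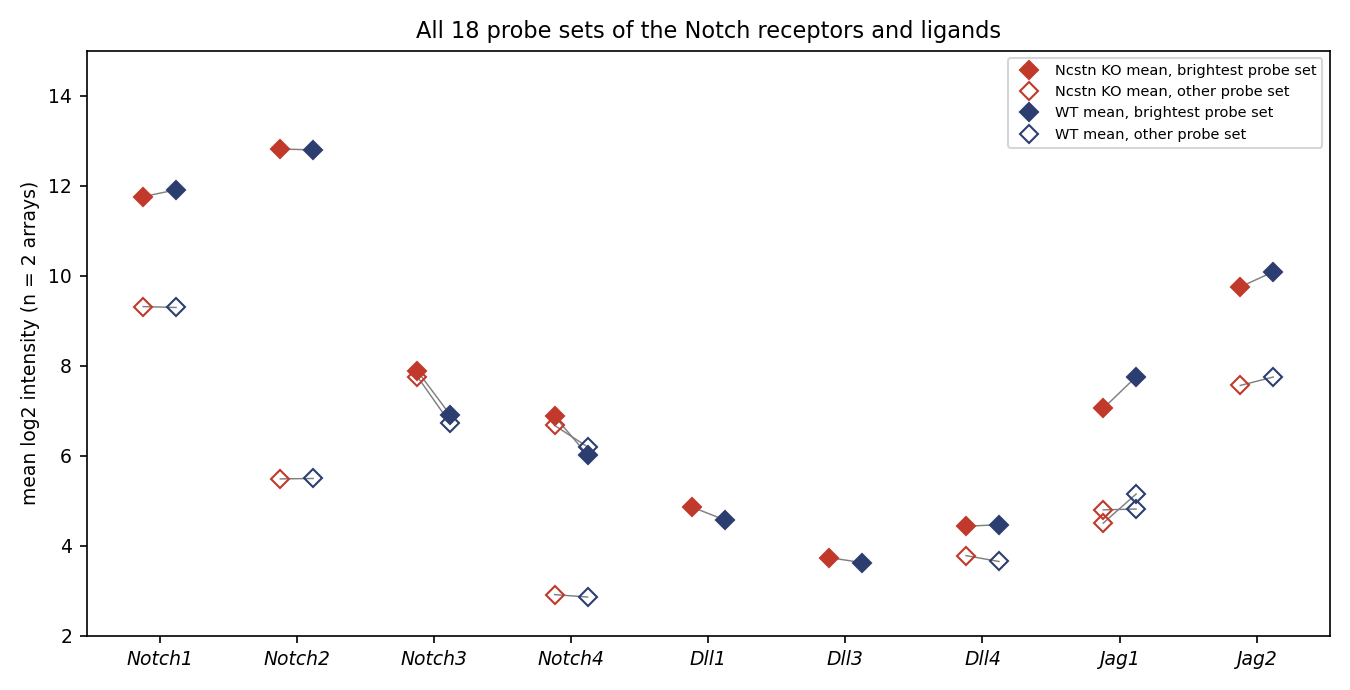
Mean log2 intensity of all 18 probe sets by gene, with Ncstn KO (n = 2) left of WT (n = 2), filled for the brightest probe set and open for the others, and a line joining the means of each probe set. Both Notch3 probe sets slope down to WT and 2 of the 3 Jag1 probe sets slope up to WT, while probe sets of the same gene can lie several log2 units apart.

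The Jagged ligands lay on the other side. Jag1, which binds Notch receptors from stromal, endothelial and hematopoietic cells, gave 6.92 and 7.18 in Ncstn KO, against 7.66 and 7.85 in WT. Every Ncstn KO array was below every WT array, and the change was -0.70 (SE 0.24, interval -1.29 to -0.12), a level 1.63-fold higher in WT that did not pass (limma adjusted p = 0.638). A dimmer Jag1 probe set had -0.65 (SE 0.31), with 4.54 and 4.47 in Ncstn KO and 5.51 and 4.78 in WT. The third had -0.02 (SE 0.22), with overlapping groups and means of 4.80 in Ncstn KO and 4.81 in WT. By the main probe set the difference was -0.93 between the females and -0.48 between the males.

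Jag2, the ligand with the brightest probe set, gave 9.63 and 9.87 in Ncstn KO, against 10.13 and 10.04 in WT. Its change was -0.34 (SE 0.16, interval -0.73 to 0.06, limma adjusted p = 0.798), and the groups did not overlap. It was -0.41 between the females and -0.26 between the males. The other Jag2 probe set was also lower on both Ncstn KO arrays, at 7.58 and 7.54 against 7.76 and 7.74 in WT, a change of -0.19 (SE 0.23). On the deposited scale all 5 Jagged probe sets had a change below 0, and all 5 probe sets of Notch3 and Notch4 had a change above 0, down to -0.018 and 0.054 for the dimmest of them. By level, Notch3 held place 4 and Jag1 place 5 in Ncstn KO, and Jag1 place 4 and Notch3 place 5 in WT.

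The Delta-like ligands were too dim for firm values. Dll1, a ligand that supports T cell and marginal zone B cell development, gave 5.00 and 4.72 in Ncstn KO, against 4.70 and 4.44 in WT. The groups were apart by a narrow margin, and the change was 0.29 (SE 0.23, limma adjusted p = 0.941), with 0.56 between the females and 0.015 between the males. Dll4, the ligand of the thymic epithelium that drives T cell commitment, gave 4.40 and 4.47 in Ncstn KO and 4.46 and 4.47 in WT, with a change of -0.04 (SE 0.19). Its dimmer probe set had a change of 0.13 (SE 0.16), with the groups apart. Dll3, an atypical ligand that acts within the cell that makes it, gave 3.96 and 3.51 in Ncstn KO and 3.65 and 3.60 in WT, so that the Ncstn KO arrays lay on either side of both WT arrays. The change of Dll3 was 0.11 (SE 0.20).

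**Figure D3:**
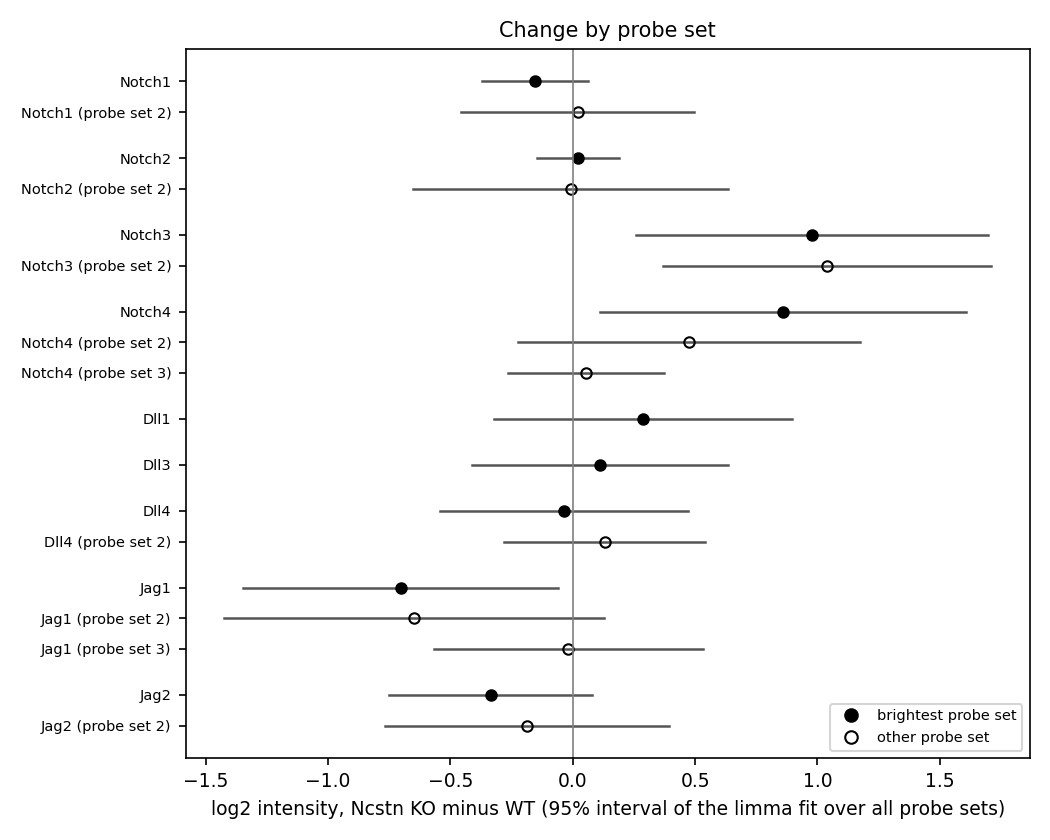
Change in log2 intensity, Ncstn KO minus WT, for each of the 18 probe sets, with the 95% interval of the limma fit over 45037 probe sets (n = 2 per group); filled points are the brightest probe set of each gene. The intervals of both Notch3 probe sets and of the main Notch4 and Jag1 probe sets leave out 0 before adjustment, and none passed the adjusted test.

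Fitted over all 45037 probe sets, 0 of the 18 passed, where 0% of all probe sets did. The groups were apart for 11 of the 18, against 32.5% of all probe sets. Probe sets of a gene share its RNA and are not separate evidence. The scaling of the arrays bears on the direction of the smallest changes. The spiked hybridization controls had a mean that was 0.20 (log2) higher on the Ncstn KO arrays, and with the arrays scaled to these controls the median gene stood at -0.17. Notch2 then stood at -0.17, at the median, and Dll3 turned to -0.085, while Notch1 (-0.35), Notch3 (0.78), Notch4 (0.66), Jag1 (-0.90) and Jag2 (-0.53) kept their sign. Under this scaling 3 members lay above WT and 6 below, against 5 and 4 without it. The groups were then apart for 7 members, against 51.3% of all genes, whereas centring the arrays on their medians left 5 members apart, without Dll1, against 28.4% of all genes.

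The sexes gave a second comparison, each holding 1 array of either genotype. No member passed between females and males (limma with genotype and sex as terms), where 0.022% of all genes did, and 0 of 9 had an unadjusted p under 0.05. The member with the largest difference was Notch3, with a mean of 7.56 in females and 7.22 in males (0.34, SE 0.22, limma adjusted p = 0.63). The 4 genes that passed, named after their values were seen, were the Y-linked Eif2s3y, Kdm5d and Uty and an immunoglobulin kappa variable gene, all lower in females. The difference between the genotypes had the same sign in both sexes for 6 of 9 members, against 55% of all genes.

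The other genes of the pathway gave the members their setting. Of 40 listed genes 37 were measured and 0 passed in either direction, with 22 above and 15 below WT, and a median change of 0.04. Both Ncstn KO arrays lay above both WT arrays for 8 of the 37 (21.3% of all genes did) and below for 9 (12.8% of all genes did). In each list the values of the 2 genes with the largest change are given. Among 5 gamma-secretase genes these were Ncstn and Psen2, a catalytic subunit, at 9.30 and 9.16 in Ncstn KO and 8.77 and 8.87 in WT (0.41, SE 0.18). The sheddases Adam10 and Adam17, which make the cut before gamma-secretase, had changes of 0.10 (SE 0.10) and 0.07 (SE 0.10), with overlapping arrays.

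Among 5 glycosylation genes, Lfng, a fringe enzyme that alters which ligands a receptor answers to, gave 9.93 and 9.91 in Ncstn KO and 10.31 and 10.28 in WT (-0.37, SE 0.14), and Rfng had 0.04 (SE 0.13). Among 7 genes of ligand activation and receptor turnover, the ubiquitin ligase gene Neurl1b, whose family acts on Notch ligands, gave 8.37 and 8.31 in Ncstn KO and 9.01 and 8.85 in WT (-0.59, SE 0.19). Its relative Neurl1a had -0.39 (SE 0.25). Both had lower values on every Ncstn KO array, as did Jag1, Jag2 and 12.8% of all genes.

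Among 4 non-canonical ligands, Dlk1, an imprinted gene for a Delta-like protein without the usual receptor-binding domain, gave 7.22 and 6.88 in Ncstn KO and 5.20 and 6.14 in WT (1.38, SE 0.37, limma adjusted p = 0.516). Dner had 0.71 (SE 0.49) with overlapping arrays. Of 3 nuclear genes, Rbpj had 0.16 (SE 0.11) and Maml1 0.14 (SE 0.13). Among 11 targets 6 lay above WT and 5 below, with a median change of 0.0049. The groups were apart for 2 targets above and 4 below, against 21.3% and 12.8% of all genes. Il2ra, the interleukin-2 receptor alpha chain gene, gave 5.59 and 4.86 in Ncstn KO and 4.34 and 4.37 in WT (0.88, SE 0.29), and Hes1 gave 5.71 and 6.07 in Ncstn KO and 6.23 and 6.76 in WT (-0.61, SE 0.30).

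**Figure D4:**
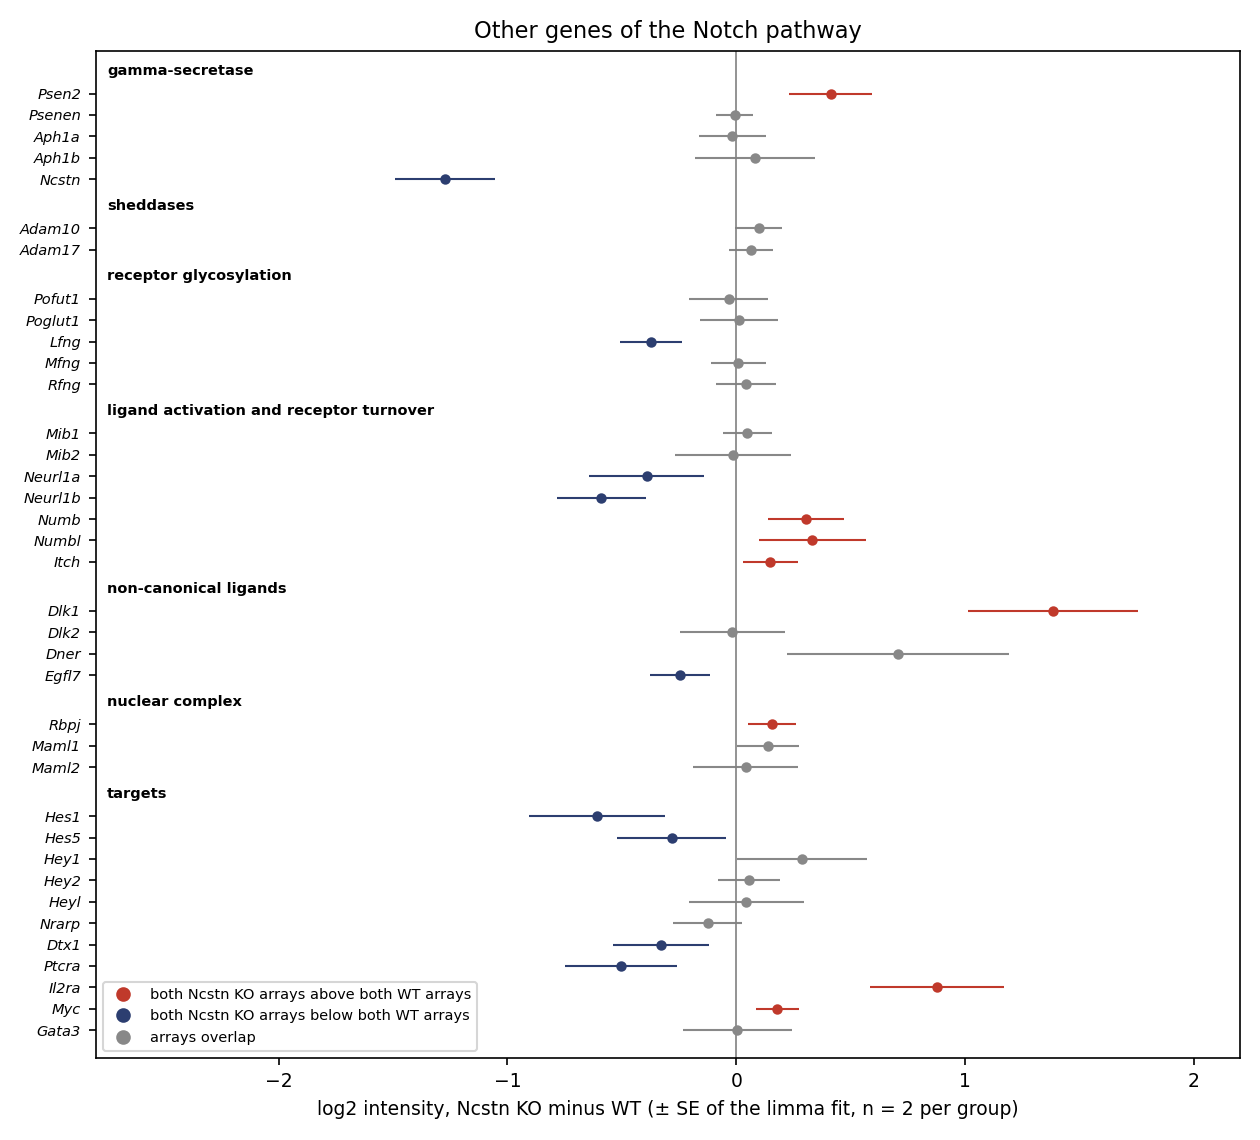
Change in log2 intensity, Ncstn KO minus WT, with the SE of the limma fit (n = 2 per group) for the 37 measured pathway genes by list; red marks genes with both Ncstn KO arrays above both WT arrays, blue those with both below, grey those that overlap. Ncstn is the lowest and Dlk1 the highest, and no gene passed the adjusted test.

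The 3 genes whose centred values over the 4 arrays lay closest to those of Notch3, by the root mean square difference on the log2 scale, were Nuak2 (0.015), Tent5b (0.059) and Wdr66 (0.064). With 4 arrays and 18193 genes such closeness is a description of these arrays only.

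Markers of the sorted cells were bright, with Kit at 11.70 and 11.73 in Ncstn KO and 11.94 and 11.57 in WT, and Cd34 at 12.78 and 12.77 in Ncstn KO and 12.81 and 12.80 in WT. Ly6a, which encodes Sca1, was not analysed here. Of the 7 measured LSK genes 3 lay above WT, and the groups were apart for 1 above and 1 below. The LSK gene above was Slamf1, at 11.07 and 10.68 in Ncstn KO and 10.44 and 9.64 in WT (0.83, SE 0.28, limma adjusted p = 0.633). Cd34 was the gene below, by a narrow margin (-0.03, SE 0.06). Among genes of more committed cells, those of some lists mostly lay above WT, but those of B cells and T cells did not. Above WT were 8 of 8 granulocyte and monocyte genes, 4 of 4 mast cell and basophil genes and 4 of 5 megakaryocyte genes, against 10150 of all 18193 genes. Both Ncstn KO arrays lay above both WT arrays for 6, 4 and 4 genes of these lists in turn, against 21.3% of all genes. Mpo overlapped between the groups (0.01, SE 0.05). The log2 summed level of the granulocyte and monocyte list was 15.11 and 15.19 in Ncstn KO, against 14.80 and 14.72 in WT. That of the mast cell and basophil list was 12.14 and 11.92 in Ncstn KO, against 10.80 and 10.87 in WT. That of the megakaryocyte list was 12.48 and 12.55 in Ncstn KO, against 10.998 and 11.78 in WT. The brightest megakaryocyte gene in Ncstn KO was Selp, at 11.58 and 11.65, against 9.745 and 9.62 in WT. Ppbp went the other way with overlapping arrays, at 4.46 and 6.84 in Ncstn KO and 5.52 and 9.46 in WT. Among the defining genes of these lists Itgam gave 5.45 and 5.77 in Ncstn KO and 4.05 and 5.02 in WT, and Gp9 gave 9.36 and 9.60 in Ncstn KO and 8.73 and 9.11 in WT. Ngp overlapped between the groups, with 12.31 and 12.88 in Ncstn KO and 12.76 and 12.23 in WT. Of 4 B cell genes 2 lay above WT, with a summed level of 11.29 and 11.51 in Ncstn KO against 11.39 and 11.62 in WT. Ms4a1, of that list, encodes the B cell surface protein CD20 and gave 5.74 and 5.74 in Ncstn KO and 7.79 and 7.94 in WT (-2.12, SE 0.24, limma adjusted p = 0.161). It was lower on both Ncstn KO arrays, as 12.8% of all genes were. Pax5, also of the B cell list, was dim and higher on both Ncstn KO arrays, at 4.44 and 4.38 against 3.80 and 4.25 in WT (0.39, SE 0.22). The defining B cell gene Cd79a overlapped between the groups, with 6.80 and 8.03 in Ncstn KO and 7.64 and 7.94 in WT. The part of these lists in the values of Notch3, Notch4 and the Jagged genes was not tested, and in bulk RNA fewer cells of a type and less RNA per cell cannot be told apart.

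Of the cell types best known for Notch4 and Jag1, 6 of 9 endothelial genes lay above WT, with a summed level of 11.12 and 11.16 in Ncstn KO against 11.36 and 11.35 in WT. The defining endothelial gene Cdh5 was within the olfactory receptor range at 3.97 and 3.90 in Ncstn KO and 3.73 and 4.02 in WT, and Kdr was just above it at 5.31 and 5.23 in Ncstn KO and 5.31 and 5.18 in WT. The other defining genes were Plvap, at 6.07 and 6.13 in Ncstn KO and 6.43 and 6.15 in WT, and Cldn5, at 4.39 and 6.32 in Ncstn KO and 4.58 and 4.38 in WT. The gene of the endothelial list with the largest change was Emcn, which encodes the surface protein endomucin and is not one of the defining genes. It gave 8.32 and 8.52 in Ncstn KO and 9.76 and 9.89 in WT (-1.40, SE 0.18, limma adjusted p = 0.192). Which of the sorted cells held Emcn RNA was not tested. Higher on both Ncstn KO arrays were 3 endothelial genes, Pecam1 (0.48, SE 0.20), Vwf (0.42, SE 0.24) and the dim Sox17 (0.29, SE 0.18), while 2 were lower (Emcn and Plvap). Of 7 stromal genes 2 lay above WT, with a summed level of 11.03 and 11.42 in Ncstn KO against 10.99 and 11.03 in WT, and 2 of the 3 defining genes (Col3a1 and Lepr) were within the olfactory receptor range. Cxcl12, of the same list, gave 4.69 and 7.84 in Ncstn KO and 8.32 and 8.56 in WT, lower on both Ncstn KO arrays. Pdgfrb, the brightest gene of that list, went the other way, at 10.91 and 11.23 in Ncstn KO and 10.62 and 10.63 in WT (0.45, SE 0.14). The groups were apart for 1 stromal gene above WT and 3 below. For T cells, where Notch3 is known to act, 2 of 6 genes lay above WT, with a summed level of 9.26 and 9.51 in Ncstn KO against 8.77 and 9.44 in WT. The groups were apart for 1 T cell gene above WT and 2 below, against 21.3% and 12.8% of all genes. The defining genes Cd3e and Cd3d had changes of -0.36 and -0.38, and Bcl11b overlapped between the groups (-0.06, SE 0.48). Cd4, the brightest gene of that list, went the other way, at 8.55 and 8.97 in Ncstn KO and 7.89 and 8.45 in WT (0.59, SE 0.28). Slamf1, Selp, Ppbp, Ms4a1, Pax5, Pecam1, Vwf, Sox17, Emcn, Pdgfrb, Cxcl12 and Cd4 were named after their values were seen. The part of the endothelial, stromal and T cell lists in the members' values was not tested either.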

How the data were processed

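Gene expression was measured in LSK cells of 4 mice on 4 Affymetrix arrays. The deposited values are probe set intensities that the authors summarised with RMA, as the submitters' processing notes name it. For its software and background model nothing is given in the sources used here. Their scale is linear, as judged from the values, and log2 was taken here before any test. Median intensities were 71.6 to 79.2 per array, and precision is limited by having only 4 arrays.

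Of 45101 probe sets, 64 controls were left out. Symbols came from GEO's platform annotation of 2016: 34945 probe sets named 1 gene, 932 several and 9160 were unnamed here. All 9 members matched RefSeq by Entrez identifier. The brightest probe set represented each of 18193 genes.

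The test was a linear model per gene in limma 3.58.1 (R 4.3.3), moderated by eBayes with a mean-variance trend, with two-sided p-values adjusted by Benjamini-Hochberg over all genes and called under 0.05. Genotype was the sole term, and sex was added to it to compare the sexes. Each gene had 2 residual degrees of freedom and, on average, 4.11 prior ones. In simulated data for Ncstn KO against WT, with 200 of 18193 genes changed, the test found 25.7% of genes given a log2 change of 1 and 81.4% of genes given a change of 2, and 4.68% of its calls were false. The simulated noise was normal and independent between genes and arrays, with spreads drawn from the model's own fit. These rates therefore hold under that model and leave out deviations that genes share on an array. The named genes were the members with every probe set, Ncstn, the 2 pathway genes of each list with the largest change, and the 3 nearest profiles to the member with the smallest p. The members and lists were chosen with earlier results of these data known. Alternatives were other scalings, a filter on dim genes, a pseudocount of 16, the mean of all probe sets, sex or replicate number as a term, no variance trend and leaving out each array. Figures were drawn with matplotlib 3.10.9.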

Additional observations from a re-analysis of the deposited data

Results flagged for a closer look

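The female and the male pair differed in sign for 3 members, Notch2, Dll3 and Dll4. Notch2 had a difference, Ncstn KO minus WT, of 0.08 between the females and -0.04 between the males, a gap of 0.13. The same values were 0.36 and -0.13 for Dll3, a gap of 0.49, and -0.075 and 0.0052 for Dll4, a gap of -0.081. These differences were not tested, since each sex holds 1 array per genotype and no residual degrees of freedom remain. Notch2 is bright, and Dll3 and Dll4 lay within the olfactory receptor range.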

How the results depend on the processing

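No member passed the adjusted test in any of the 111 refits made of the 9 members, where the limma adjusted p ran from 0.146 to 1. Notch1, Notch3, Notch4, Dll1, Jag1 and Jag2 kept their sign in all of theirs, over -0.35 to -0.07 for Notch1, 0.73 to 1.23 for Notch3, 0.46 to 1.07 for Notch4, 0.09 to 0.43 for Dll1, -0.90 to -0.46 for Jag1 and -0.53 to -0.21 for Jag2. The terms for sex and replicate, the fit without a variance trend and the filter on dim genes do not alter a change. A sign could not turn in those refits. Notch2 turned to -0.17 under scaling to the hybridization controls and to -0.039 without WT replicate 2 (up to 0.080 without WT replicate 1). Dll3 turned to -0.085 under that scaling and to -0.11 without Ncstn KO replicate 1 (up to 0.33 without Ncstn KO replicate 2). Dll4 turned to 0.048 as the mean of its probe sets and to 0.00098 without Ncstn KO replicate 1 (down to -0.071 without Ncstn KO replicate 2). Scaling to the hybridization controls lowered the change of every gene by the same 0.20 (log2), and the cause of the other turns was not tested.

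Over all genes the limma count of 0 became 3 after quantile normalization (Ms4a3, Plet1os and Selp), 62 after centring on array medians and 2 without dim genes (Ms4a3 and Selp, with fewer genes tested). Leaving out an array gave 0 to 27, with 23 without Ncstn KO replicate 1 and 27 without Ncstn KO replicate 2, and 1237 genes had an unadjusted p under 0.05. Genes changed at least 2-fold with separate groups numbered 311 (217 higher and 94 lower), of which 0 were members. They became 80 without dim genes, 190 with a pseudocount of 16, and 419 to 566 with an array left out (566 without Ncstn KO replicate 1 and 545 without Ncstn KO replicate 2). The split was 111 higher and 168 lower when scaled to the hybridization controls.

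The replicate numbers do not pair the mice: same-numbered arrays deviated from their group means with a correlation of -0.24 across genes. With replicate number as a block, 0 genes were called, as without it. The crossed pairing joins the arrays of the same sex, and the fit with sex as a term also called 0 genes. The Dll1 and Dll4 places in the WT order exchanged without WT replicate 1. Signal over background could not be assessed from the deposited values, which limits what can be said of the Delta-like ligands.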
